A study of Mus musculus with 12 samples.

Results

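The cadherin and protocadherin genes of the array, 56 of the 18193 genes it measured with a single gene symbol, were followed while mouse embryonic stem (ES) cells expressed an induced Neurog1 transgene. The members are all genes whose symbol is Cdh or Pcdh followed by a number, or by the letter of the alpha, beta or gamma protocadherin cluster. They comprise 5 type I and 11 type II classical cadherins, 5 other cadherins, 12 non-clustered protocadherins, 22 protocadherins of the beta cluster and 1 of the gamma cluster. Where a gene had several probe sets (the 56 genes have 101), the brightest over the 12 arrays stands for it.

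The cells were ES cells of 129P2/OlaHsd origin (E14, Ainv15), 1 engineered line in which doxycycline switches on Neurog1, a basic helix-loop-helix factor that drives neuronal differentiation. There were 4 groups of 3 arrays, called biological replicates in the labels: uninduced cells at 0 h without doxycycline, and cells given 1 ug/ml doxycycline for 24, 48 or 72 h. Every group carried the transgene and grew in serum medium with leukaemia inhibitory factor (LIF), puromycin and G418. The labels of the uninduced arrays give 0 h and maintenance culture, whereas the description of the series can be read as placing uninduced cells at the later times too; no such array was analysed here. Taken at 0 h, a difference from uninduced cells may stem from the transgene, from doxycycline or from the time elapsed, which the design cannot separate. P-values measure the spread between these arrays. The RNA was that of whole cultures, where fewer cells of a type cannot be told apart from less RNA per cell.

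Median signals of the arrays lay between 19.5 and 32.8. Induced 24 h replicate 1 stood apart, with r = 0.787 and r = 0.812 across genes against the other 24 h arrays. The lowest correlation within the other groups was 0.961. The 24 h calls of family members below, and those of Klf4, Zeb1, Rest and Dnmt3a, are therefore also given without that array. Those of single marker genes, of Twist1 and of Esrp1 are not. The ES cell label fits the markers of uninduced cells: all 8 ES cell markers were above the array median on every uninduced array, and their summed signal went from 41825–48906 in uninduced cells to 21941–29227 at 24 h, 5738–8700 at 48 h and 4968–5675 at 72 h. The summed signal of 8 neuronal markers was 3922–4333, 1727–4282, 9896–14137 and 22786–25149 in the same order, and that of 6 neural progenitor markers 2224–2457, 1944–2774, 7137–7996 and 7769–8932. In uninduced cells 1 gene gave most of the neuronal and of the progenitor sum, Stmn2 at 3222, 3649 and 3264 and Vim at 2162, 2213 and 2291. The largest part of the ES cell sum there was Dppa5a, at 14512, 12950 and 18369. At 24 h 3 of the 8 neuronal markers were called higher (adjusted p under 0.05) and 2, Stmn2 and Nefl, lower. Of the 6 progenitor markers 3 were called higher and 0 lower. Without the array that stood apart the numbers were 6 and 2, and 4 and 0. Of the 8 ES cell markers 0 were called higher and 4 lower at 24 h, with or without that array. Pou5f1 and Utf1 overlapped uninduced cells at 24 h. Of all genes tested 8.12% were higher and 3.18% lower at 24 h. The part of these shifts in the results on the family was not tested.

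Classical cadherins join cells by binding the same cadherin on a neighbouring cell and hold on to the actin skeleton through catenins. E-cadherin (Cdh1) joins ES cells into compact colonies, and neural cells carry N-cadherin (Cdh2) instead, an exchange known as the E-to-N-cadherin switch. Protocadherins are relatives without the catenin-binding tail, and the clustered ones are expressed in differing combinations by single neurons and serve neuronal self-recognition.

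At 24 h Cdh2, P-cadherin (Cdh3), Cdh10 and Pcdh8 had risen while Cdh1 kept a level that could not be told from that of uninduced cells. The calls of Cdh3 and Pcdh8 held in every alternative processing, and those of Cdh2 and Cdh10 did not. By 48 h Cdh1 had fallen, Cdh2, Cdh4, 3 type II cadherins, 3 non-clustered protocadherins and 6 beta-cluster genes had risen, and Cdh3 had fallen from its 24 h signal. At 72 h all 9 tested beta-cluster genes and all 5 tested non-clustered protocadherins were higher. These, like the type II cadherins, passed the signal filter given below through induced arrays alone, so their counts are no support. With no filter 8 of 22 beta-cluster genes, 3 of 12 non-clustered protocadherins and 3 of 11 type II cadherins were higher at 48 h, beside 13.8% of all genes. At 72 h 14 of 22 beta-cluster genes and 4 of 12 non-clustered protocadherins were, beside 16.2%.

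Only 24 of the 56 members were bright enough to be tested, which required a signal above its array's median on all 3 arrays of at least 1 group. A member that passed only where it is high was selected towards a difference, so the counts below are also given over all 56. At 24 h 4 of the 24 were higher than in uninduced cells (limma, Benjamini-Hochberg adjusted p under 0.05 over 11806 genes), where 8.12% of all genes tested were higher, and 0 were lower, where 3.18% were lower. At an unadjusted p under 0.05 the numbers were 6 and 0. At 48 h 14 were higher and 1 lower, against 22.6% and 14% of all genes tested. At 72 h 19 were higher and 2 lower, against 25.3% and 18.6%. From 24 to 48 h 11 rose and 2 fell, against 10.3% and 7.55%. From 48 to 72 h 2 rose and 0 fell, with 11 and 0 at an unadjusted p under 0.05, against 0.644% and 0.152%.

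With no filter, members called higher than in uninduced cells numbered 4 of 56 (7.14%) at 24 h, 16 (28.6%) at 48 h and 24 (42.9%) at 72 h, and the shares of all genes were 4.38%, 13.8% and 16.2%. Members called lower then numbered 0, 1 and 1, where 1.64%, 8.47% and 11.8% of all genes were. From 24 to 48 h 13 (23.2%) rose and 2 fell without the filter, against 5.85% and 4.08% of all genes, and from 48 to 72 h 2 (3.57%) rose, against 0.374%. By array, 7 members at 24 h, 21 at 48 h and 27 at 72 h had all 3 arrays above all 3 uninduced arrays, where 13.1%, 25.2% and 25.7% of all genes did. At 24 h that is no larger a share than among all genes. All 3 arrays were below the uninduced ones for 2, 4 and 5 members, where 7.7%, 20.2% and 21.9% of all genes were. From 24 to 48 h all 3 arrays moved above for 18 members and below for 4, against 14.6% and 14.1% of all genes, and from 48 to 72 h above for 17 and below for 0, against 9.64% and 9.93%. The median difference from uninduced cells over the 56 members was 0.06, 0.26 and 0.53 on the log2(signal + 16) scale at 24, 48 and 72 h, and over all genes it was 0.04, 0.02 and 0.01. Differences below are on that scale, with the standard error (SE) of limma, and understate changes of dim genes. The 3 comparisons with uninduced cells share the same 3 control arrays.

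**Figure D1:**
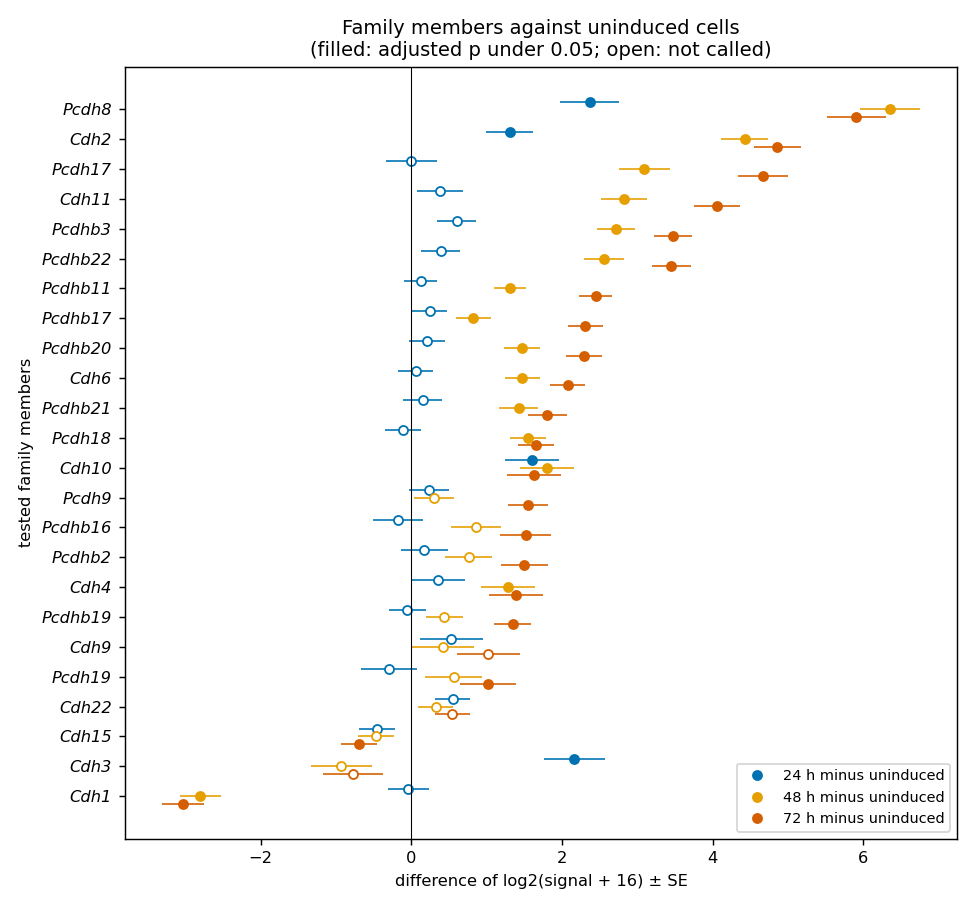
Difference of each tested family member from uninduced cells (x axis, log2(signal + 16) scale, ± SE) at 24 h (blue), 48 h (yellow) and 72 h (red), 3 arrays against 3; filled points have an adjusted p under 0.05 and open points do not. Most points at 48 and 72 h lie to the right of 0, with Pcdh8 and Cdh2 farthest out, while Cdh1 lies to the left.

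Among the type I cadherins, Cdh1 fell and Cdh2 rose, most of both between 24 and 48 h. Cdh1 gave signals of 2491, 2189 and 1849 on uninduced replicates 1 to 3, 2825, 1839 and 1789 at 24 h, 209, 374 and 331 at 48 h, and 283, 283 and 196 at 72 h. The 24 h arrays overlapped the uninduced ones, and every array at 48 and 72 h lay below every earlier one. The difference at 24 h was -0.04 ± 0.27 (95% interval -0.63 to 0.55, adjusted p = 0.941), and without the 24 h array that stood apart it was -0.25 (adjusted p = 0.467). Cdh1 was then lower than in uninduced cells by -2.80 ± 0.27 at 48 h (adjusted p = 1.01e-05) and -3.03 ± 0.27 at 72 h (adjusted p = 3.31e-06). Between 24 and 48 h alone it fell by 2.76 ± 0.27 (adjusted p = 5.38e-05).

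Cdh2 gave signals of 37.2, 87.8 and 30.8 in uninduced cells, 95.5, 197 and 149 at 24 h, 1467, 1343 and 1260 at 48 h, and 1862, 1724 and 1916 at 72 h. The groups followed one another without overlap at every step. The first step, 24 h against uninduced cells, was 1.31 ± 0.31 (adjusted p = 0.018), and 1.56 without the 24 h array that stood apart (adjusted p = 0.00118). That call was lost without uninduced replicate 1 (1.18, adjusted p = 0.0813), uninduced replicate 3 (1.09, adjusted p = 0.0808) or induced 24 h replicate 2 (1.09, adjusted p = 0.0575), and in a fit of the 6 arrays alone (adjusted p = 0.139). The later differences from uninduced cells were 4.43 ± 0.31 at 48 h (adjusted p = 1.02e-06) and 4.86 ± 0.31 at 72 h (adjusted p = 2.75e-07). At 24 h Cdh2 thus stood at 26.9% of its 72 h difference, and Cdh1 at 1.27%; at 48 h the shares were 91.1% and 92.5%. From 48 to 72 h neither passed the test (Cdh2 0.43 ± 0.31, adjusted p = 0.93; Cdh1 -0.23 ± 0.27, adjusted p = 1).

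Cdh3, P-cadherin of epithelia and placenta, peaked at 24 h. Its signals were 40.6, 47.3 and 57.5 in uninduced cells, 572, 230 and 149 at 24 h, 6.83, 29.9 and 20.7 at 48 h, and 25.7, 24.3 and 15.2 at 72 h. All 24 h arrays lay above all others, with the array that stood apart highest. The rise at 24 h was 2.17 ± 0.40 (adjusted p = 0.00424), or 1.65 without that array (adjusted p = 0.00191), and the fall to 48 h was -3.09 ± 0.40 (adjusted p = 0.000288), or -2.58 without it (adjusted p = 8.06e-05). The 48 and 72 h arrays were below all uninduced ones, at differences of -0.93 (adjusted p = 0.0885) and -0.78 (adjusted p = 0.134). The other Cdh3 probe set also had its highest mean at 24 h but differed by less there (1.14), fell by less to 48 h (-0.81), and at 48 and 72 h lay on the other side of uninduced cells (0.33 and 0.44). The summed signal of 6 trophoblast markers was 907–1709 at 24 h, overlapping 473–949 in uninduced cells, 254–402 at 48 h and 306–442 at 72 h. Of the 3 tested, only Tfap2c was called higher at 24 h, where 8.12% of all genes tested were. It gave 1045, 814 and 663 at 24 h against 533, 378 and 279 in uninduced cells. Krt18 and Eomes overlapped uninduced cells, and the untested Cdx2, Hand1 and Elf5 stayed at 30.6 or less on the 12 arrays. The part of these markers in the Cdh3 result was not tested.

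The remaining type I genes changed less. Cdh4, the R-cadherin of retina and brain, gave 42.6, 28.6 and 18.2 in uninduced cells, 47.8, 37.6 and 39 at 24 h, 151, 114 and 43.8 at 48 h, and 122, 119 and 69.8 at 72 h. All arrays at 48 and 72 h were above all uninduced ones, by 1.29 ± 0.36 (adjusted p = 0.0131) and 1.39 ± 0.36 (adjusted p = 0.007). The 48 h call was lost without uninduced replicate 3 (adjusted p = 0.0586), 48 h replicate 1 (adjusted p = 0.0682) or 48 h replicate 2 (adjusted p = 0.0549). Between 24 and 48 h the difference was 0.93 (adjusted p = 0.0895), and with the replicate number as a block it passed (adjusted p = 0.0251). Cdh15, M-cadherin of muscle, was dim, with 33.3, 28.5 and 63.3 in uninduced cells and 14, 24.4 and 17.5 at 72 h. Its difference of -0.70 ± 0.24 at 72 h (adjusted p = 0.0309) became -0.45 without uninduced replicate 3 (adjusted p = 0.13), and the call was also lost without 72 h replicate 1 (adjusted p = 0.11) or replicate 3 (adjusted p = 0.0682).

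**Figure D2:**
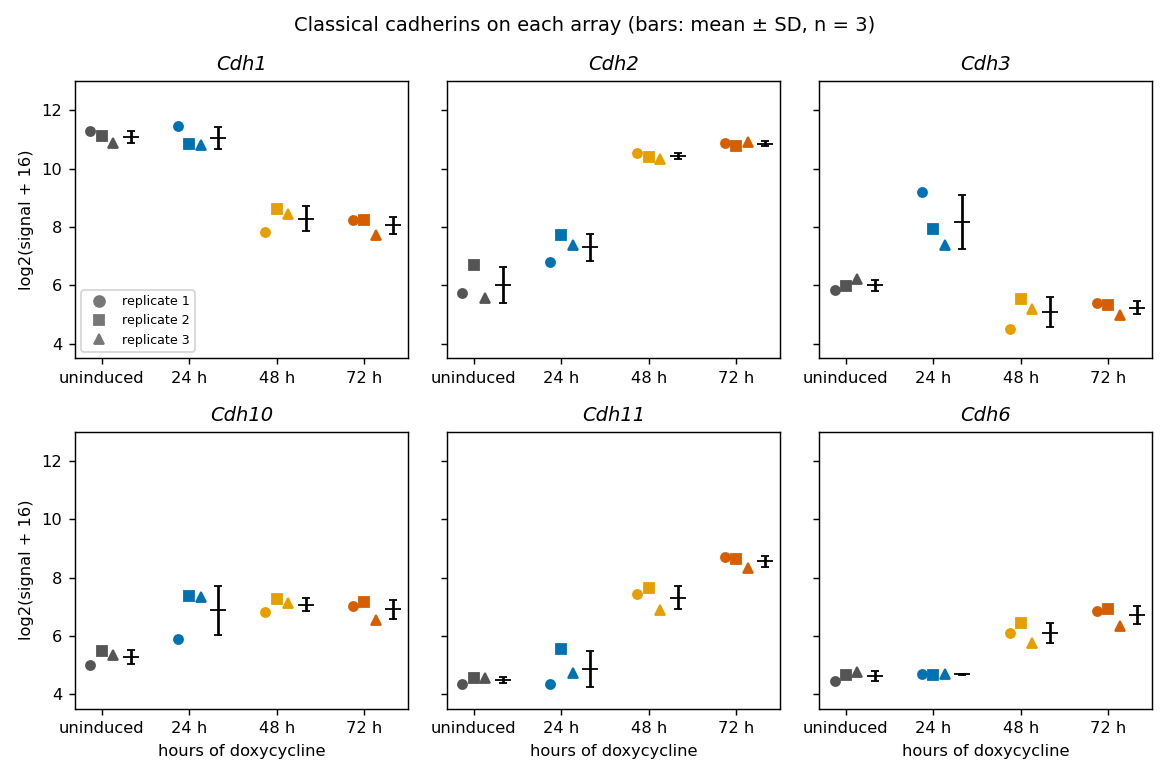
Log2(signal + 16) of 6 classical cadherins on each array (points, shape by replicate) with the mean ± SD of the 3 arrays per group (bars). Cdh1 drops and Cdh2 climbs between 24 and 48 h, Cdh3 is highest at 24 h, and Cdh11 and Cdh6 climb to 72 h.

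Of the 11 type II cadherins, a type of which many mark subsets of neurons or mesenchyme, 3 were called higher. Of the 5 tested, Cdh10 was called at 24 h, Cdh10, Cdh11 and Cdh6 at 48 and 72 h, and none was lower, also at an unadjusted p under 0.05. All 5 passed the filter through induced arrays alone, so these counts are no support. With no filter 1, 3 and 3 of the 11 type II genes were higher at 24, 48 and 72 h, and 0 were lower. The shares of all genes were then 4.38%, 13.8% and 16.2% higher and 1.64%, 8.47% and 11.8% lower.

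Cdh10, expressed in developing brain, gave 16.2, 28.5 and 24.2 in uninduced cells, 44.1, 148 and 147 at 24 h, 96.2, 138 and 125 at 48 h, and 114, 128 and 76.5 at 72 h. Every induced array was above every uninduced one, with the 24 h array that stood apart lowest among them. The difference was 1.60 ± 0.36 at 24 h (adjusted p = 0.0123), 1.80 ± 0.36 at 48 h (adjusted p = 0.00181) and 1.63 ± 0.36 at 72 h (adjusted p = 0.0026), so it was at 98% of its 72 h size after 24 h. Without the array that stood apart the 24 h difference was 2.08 (adjusted p = 7.95e-05), and without uninduced replicate 1 the call was lost (adjusted p = 0.0621). It was also lost in a fit of the 6 arrays alone (adjusted p = 0.0914), and in the mean of the 4 Cdh10 probe sets (0.64, adjusted p = 0.0702). The other 3 Cdh10 probe sets differed by 0.03 to 0.64 at 24 h and by -0.29 to 0.46 at 48 h.

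Cdh11, typical of mesenchyme and also present in neural tissue, gave 4.63, 7.33 and 7.67 in uninduced cells, 4.25, 30.8 and 10.5 at 24 h, 156, 183 and 101 at 48 h, and 396, 382 and 305 at 72 h. The 24 h arrays overlapped the uninduced ones, and the later groups were each above all before. It was higher by 2.82 ± 0.30 at 48 h (adjusted p = 2.1e-05) and 4.06 ± 0.30 at 72 h (adjusted p = 7.94e-07), and the step from 48 to 72 h, 1.24 ± 0.30, missed the threshold (adjusted p = 0.0934). The other Cdh11 probe set, dimmer on every array, differed from uninduced cells by 0.87 at 48 h and 1.64 at 72 h. The 8 markers of fibroblasts and feeders summed to 132–168 in uninduced cells, 114–144 at 24 h, 165–244 at 48 h and 168–387 at 72 h. Of the 3 that could be tested, Pdgfra was higher at 48 h (1.10, adjusted p = 0.0164) and 72 h (1.64, adjusted p = 0.00115), Col1a2 at 48 h (1.26, adjusted p = 0.0322), and Thy1 was lower at both times. Among the untested 5, Postn gave 9.05, 3.89 and 4.02 in uninduced cells and 84.9, 83.5 and 18.3 at 72 h, Col3a1 reached 50.4 and 64.2 on 2 arrays at 72 h, and Dcn and Lum stayed at 23.3 or less. Their part in the Cdh11 result was not tested. The 6 neural crest markers summed to 279–335, 206–426, 583–945 and 484–502 in that order. Of the 5 tested, 3 were called higher and Foxd3 lower at 48 h, and 2 higher and Foxd3 lower at 72 h. Pax3 alone gave 306, 343 and 508 at 48 h and 185, 194 and 296 at 72 h. Of all genes tested 22.6% and 25.3% were higher and 14% and 18.6% lower at these times. Cdh6, a cadherin of early neural and kidney tissue, gave 5.78, 9.31 and 11.3 in uninduced cells, 9.94, 9.4 and 9.77 at 24 h, 52, 70.8 and 38.6 at 48 h, and 98.7, 105 and 65.7 at 72 h. Like Cdh11 it was called from 48 h, at 1.47 ± 0.23 (adjusted p = 0.000371), and stood at 2.08 ± 0.23 at 72 h (adjusted p = 1.83e-05). Its other probe set, at 8.72, 6.79 and 3.93 in uninduced cells, was already above them at 24 h, at 43.1, 23.6 and 14.6 (a difference of 0.89), so the time of the Cdh6 rise differs between the probe sets. At 48 and 72 h that probe set differed by 1.42 and 1.81.

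Cdh9 and Cdh22, both neuronal type II cadherins, did not pass the test in any comparison. Cdh9 gave 16.8, 27.2 and 10.6 in uninduced cells and 79.7, 55.4 and 30 at 72 h, above all uninduced arrays, at 1.02 ± 0.42 (adjusted p = 0.0639). Cdh22 gave 19.8, 19.7 and 14 in uninduced cells, 48, 29.6 and 25.2 at 24 h, and 41.4, 38.1 and 22.6 at 72 h. Its difference was 0.55 ± 0.23 at 24 h (adjusted p = 0.15) and 0.55 ± 0.23 at 72 h (adjusted p = 0.0715). The untested 6 include Cdh5, the VE-cadherin of endothelium, whose signals stayed between 0.431 and 14.2 on the 12 arrays. The 6 endothelial markers, Pecam1 among them, summed to 225–396 in uninduced cells, 336–442 at 24 h, 58.5–115 at 48 h and 85.9–94.1 at 72 h. Of the 4 that could be tested, Cldn5 alone was called higher at 24 h (2.17, adjusted p = 0.000703), where 8.12% of all genes tested were. Its signals were 201, 126 and 121 against 11.7, 20.2 and 30 in uninduced cells. Pecam1 was called lower at 48 h, and Pecam1 and Tek at 72 h, beside 14% and 18.6% of all genes tested. From 24 to 48 h 3 of the 4 fell, beside 7.55%. Tie1 and Emcn were untested and stayed at 18.5 or less.

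The largest difference of the family was that of a non-clustered protocadherin, Pcdh8, at 48 h. Pcdh8, a protocadherin of embryonic paraxial mesoderm and of synapses, gave 7.21, 10.4 and 40.9 in uninduced cells, 193, 194 and 92.9 at 24 h, 2649, 2498 and 2835 at 48 h, and 2696, 2262 and 1206 at 72 h. Every 24 h array was above every uninduced one and below every 48 and 72 h array, and the 48 and 72 h groups overlapped. The differences from uninduced cells were 2.37 ± 0.39 at 24 h (adjusted p = 0.00238), 6.35 ± 0.39 at 48 h (adjusted p = 3.94e-07) and 5.91 ± 0.39 at 72 h (adjusted p = 3.48e-07). Without the 24 h array that stood apart the first was 2.21 (adjusted p = 0.0015). Its other probe set differed by 1.80, 5.75 and 5.25. The 5 mesoderm and muscle markers on the array summed to 40.8–78.9 in uninduced cells, 103–148 at 24 h, 58.4–98.5 at 48 h and 48.9–84.3 at 72 h. Only Des was tested. It was called higher at 24 h, at 81.2, 44.5 and 53.1 against 5.5, 30.6 and 10.4 in uninduced cells. The untested Mesp1, Tbx6, Myod1 and Myog stayed at 35 or less on the 12 arrays. The part of these markers in the Pcdh8 result was not tested.

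Pcdh17, a protocadherin of axons and synapses, rose later. It gave 5.83, 7.02 and 12.6 in uninduced cells, 1.28, 16.7 and 9.44 at 24 h, 194, 302 and 118 at 48 h, and 696, 710 and 444 at 72 h. The groups overlapped at 24 h (0.00 ± 0.34, 95% interval -0.73 to 0.73, adjusted p = 1; 0.25 without the array that stood apart, adjusted p = 0.629) and were apart at each later step. It was higher than in uninduced cells by 3.09 ± 0.34 at 48 h (adjusted p = 2.4e-05) and 4.67 ± 0.34 at 72 h (adjusted p = 6.62e-07). The step from 48 to 72 h was 1.58 ± 0.34 (adjusted p = 0.0541), and 0.0463 was its adjusted p with the replicate number as a block.

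Pcdh18 and Pcdh9 rose at different times. Pcdh18, a protocadherin of embryonic mesenchyme and nervous system, gave 15.6, 20.8 and 17.3 in uninduced cells, 12.9, 17.1 and 16.4 at 24 h, 109, 69.5 and 74.8 at 48 h, and 118, 99.1 and 63.5 at 72 h. It was higher by 1.55 ± 0.24 at 48 h (adjusted p = 0.000313) and 1.66 ± 0.24 at 72 h (adjusted p = 0.000132), with no step between the last groups that passed (0.11, adjusted p = 1). Pcdh9, a neuronal protocadherin, gave 20.3, 12.3 and 33.3 in uninduced cells, 27, 30.1 and 25.7 at 24 h, 29.1, 34.9 and 25.3 at 48 h, and 117, 109 and 59.6 at 72 h. Only its 72 h arrays lay above all others, at 1.55 ± 0.26 against uninduced cells (adjusted p = 0.000485) and 1.25 ± 0.26 against 48 h (adjusted p = 0.0532). At 48 h Pcdh9 was at 19.6% of its 72 h difference and Pcdh18 at 93.3%.

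Pcdh19, the X-linked protocadherin known from an epilepsy of females, was the least certain of these. It gave 15.6, 18 and 42 in uninduced cells, 3.13, 23.8 and 28.2 at 24 h, 38.9, 37 and 53.5 at 48 h, and 48.2, 46.5 and 113 at 72 h. Its rise at 72 h, 1.02 ± 0.38 (adjusted p = 0.0427), was 0.67 without 72 h replicate 3 (adjusted p = 0.173) and held in 10 of 20 alternatives, with adjusted p from 0.00802 to 0.173. The call was lost without any of uninduced replicates 1 and 2, 48 h replicates 1 to 3 and 72 h replicate 1 as well, with the highest adjusted p among these 0.142. From 24 to 48 h the difference of 0.86 passed only with the replicate number as a block (adjusted p = 0.0378 against 0.13).

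**Figure D3:**
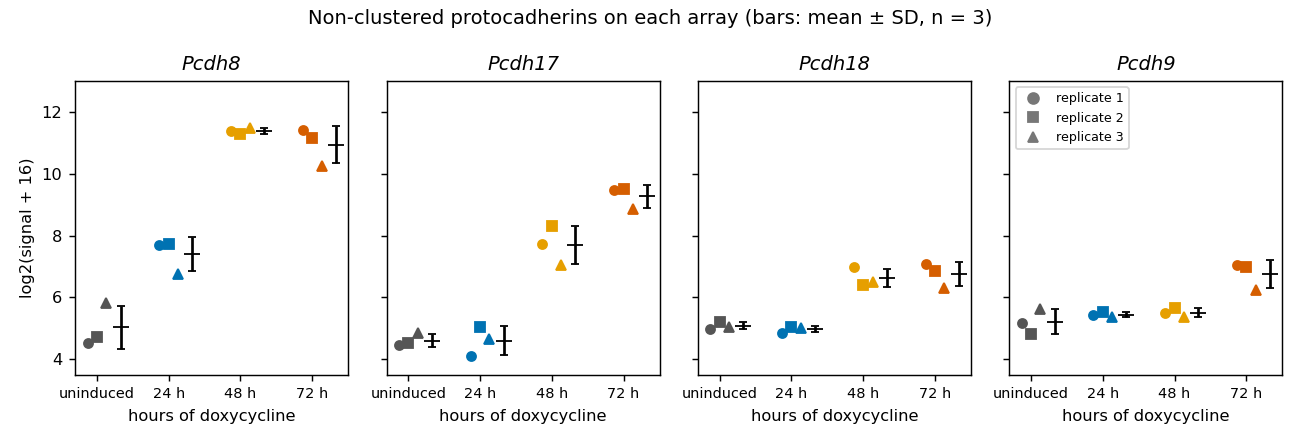
Log2(signal + 16) of 4 non-clustered protocadherins on each array (points, shape by replicate) with the mean ± SD of the 3 arrays per group (bars). Pcdh8 is above uninduced cells from 24 h, Pcdh17 and Pcdh18 from 48 h, and Pcdh9 at 72 h.

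Promoter sequences are shown for Pcdh8 and Cdh10, which were called at 24 h, and for Pcdh17, which was called from 48 h. They are the 250 bases before the start site, 5′ to 3′ on the strand of the gene, from RefSeq on GRCm38.p6: chr14:79771313-79771562 (minus strand) for Pcdh8, chr15:18820079-18820328 (plus strand) for Cdh10 and chr14:84443313-84443562 (plus strand) for Pcdh17. Capitals mark each E-box, CANNTG, the motif of basic helix-loop-helix factors such as Neurog1, which reads the same way on both strands.
Pcdh8: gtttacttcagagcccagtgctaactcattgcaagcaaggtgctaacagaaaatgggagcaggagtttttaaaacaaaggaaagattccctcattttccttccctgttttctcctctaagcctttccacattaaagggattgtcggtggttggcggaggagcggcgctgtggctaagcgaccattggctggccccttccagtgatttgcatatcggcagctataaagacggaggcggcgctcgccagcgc
Cdh10: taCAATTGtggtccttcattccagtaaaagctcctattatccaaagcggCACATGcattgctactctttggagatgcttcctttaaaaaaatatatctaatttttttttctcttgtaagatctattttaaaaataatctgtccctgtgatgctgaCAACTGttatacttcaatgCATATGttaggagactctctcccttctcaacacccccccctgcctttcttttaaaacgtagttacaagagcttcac
Pcdh17: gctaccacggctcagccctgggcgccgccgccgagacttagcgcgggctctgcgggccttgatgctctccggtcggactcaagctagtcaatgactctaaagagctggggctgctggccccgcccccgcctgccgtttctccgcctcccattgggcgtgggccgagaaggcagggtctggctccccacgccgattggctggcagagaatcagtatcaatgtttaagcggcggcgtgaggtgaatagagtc
The Cdh10 stretch held 4 E-boxes, which began at -248, -201, -95 and -76 from the start site, and the others held none. Of all 32851 promoter entries 66.2% held a CANNTG in this window. CAGATG or its reverse CATCTG stood in 14.4% of all entries and in none of the 3 stretches. The Pcdh17 stretch held 21 CpG and was 64.8% GC, that of Pcdh8 11 CpG and 51.2%, and that of Cdh10 2 CpG and 36.8%, where the median over all entries was 6 CpG. Of the 56 members 20 had an entry, and 10 of these held a CANNTG and 1 a CAGATG or CATCTG.

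The beta-cluster protocadherins lie side by side on the chromosome, each with a promoter of its own. At 24 h 0 of the 9 tested genes passed, also without the array that stood apart, and 1, Pcdhb3, had an unadjusted p under 0.05. At 48 h 6 of the 9 were higher than in uninduced cells, at 72 h all 9 tested were, and with no filter 8 and 14 of the 22 genes were. Of all genes tested 22.6% and 25.3% were higher at these times, and 13.8% and 16.2% with no filter. The 9 passed the filter through the 48 or 72 h arrays alone, so the count among them is no support. On the uninduced and the 24 h arrays 0 of the 22 genes had a signal above the array median. On the 48 h arrays 7, 7 and 5 did, and on the 72 h arrays 10, 12 and 10. Over the 22 genes the median difference from uninduced cells went from 0.07 at 24 h to 0.60 at 48 h and 1.29 at 72 h.

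Pcdhb3 gave 1.77, 1.18 and 1.3 in uninduced cells, 17.4, 9.87 and 5.34 at 24 h, 104, 111 and 82.1 at 48 h, and 228, 201 and 122 at 72 h. Each group lay above all arrays of the one before, and against uninduced cells the differences were 0.60 ± 0.25 at 24 h (adjusted p = 0.152, and 0.43 without the array that stood apart, adjusted p = 0.253), 2.72 ± 0.25 at 48 h (adjusted p = 7.6e-06) and 3.48 ± 0.25 at 72 h (adjusted p = 6.78e-07). Pcdhb22, at the far end of the cluster, gave 0.992, 1.83 and 7.59 in uninduced cells, 1.67, 14.7 and 13.6 at 24 h, 115, 111 and 71.9 at 48 h, and 207, 196 and 183 at 72 h. Its differences were 2.56 ± 0.26 at 48 h (adjusted p = 1.44e-05) and 3.45 ± 0.26 at 72 h (adjusted p = 8.92e-07), with the 24 h arrays overlapping the uninduced ones.

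Pcdhb11 and Pcdhb17 were the members called higher at 72 h than at 48 h. Pcdhb11 gave 5.21, 6.19 and 2.39 in uninduced cells, 4.99, 12.5 and 2.72 at 24 h, 38.5, 38.9 and 28.3 at 48 h, and 104, 102 and 83.3 at 72 h. Pcdhb17 gave 6.25, 7.94 and 1.78 in uninduced cells, 8.53, 7.43 and 11.3 at 24 h, 18.9, 32.1 and 15.3 at 48 h, and 113, 83 and 73.5 at 72 h. In both genes the 72 h arrays were above every 48 h array, by 1.13 ± 0.22 for Pcdhb11 (adjusted p = 0.0279) and 1.48 ± 0.23 for Pcdhb17 (adjusted p = 0.00918). The Pcdhb11 call from 48 to 72 h was lost without any one of the 48 h replicates or of 72 h replicates 1 and 2 (adjusted p from 0.0789 to 0.184). That of Pcdhb17 was lost without 48 h replicate 1 (adjusted p = 0.0501), 48 h replicate 3 (adjusted p = 0.065) or 72 h replicate 1 (adjusted p = 0.0649), and both were lost with a pseudocount of 1. Against uninduced cells Pcdhb11 was higher by 1.31 at 48 h (adjusted p = 0.000509) and 2.45 at 72 h (adjusted p = 2.76e-06). Pcdhb17 was higher by 0.82 at 48 h (adjusted p = 0.0146) and 2.31 at 72 h (adjusted p = 8.05e-06). Its 48 h call was lost without uninduced replicate 3 (adjusted p = 0.0593) or 48 h replicate 2 (adjusted p = 0.0749).

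Of the other tested beta-cluster genes, Pcdhb20 and Pcdhb21 were called from 48 h and Pcdhb2, Pcdhb16 and Pcdhb19 at 72 h. Pcdhb20 was higher by 1.46 and 2.29 at 48 and 72 h and Pcdhb21 by 1.42 and 1.81. Pcdhb2, Pcdhb16 and Pcdhb19 were higher at 72 h by 1.50, 1.52 and 1.34 (adjusted p = 0.00195, 0.00277 and 0.000807). Among the untested genes, Pcdhb7 reached 42.5, 42.6 and 21.5 at 72 h from 1.38, 2.29 and 13.2, and Pcdhb8 27.3, 21.4 and 40.2 from 1.05, 1.84 and 3.48, both without overlap. Pcdhb1, at the start of the cluster, stayed between 0.299 and 7.03 on the 12 arrays. At 72 h 14 of the 22 genes had all arrays above the uninduced ones and 1, Pcdhb14, had all below, at signals of 5.01, 2.91 and 2.88 against 7.03, 6.21 and 8.87. These genes are close paralogs, and how far 1 probe set also detects its neighbours was not tested.

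**Figure D4:**
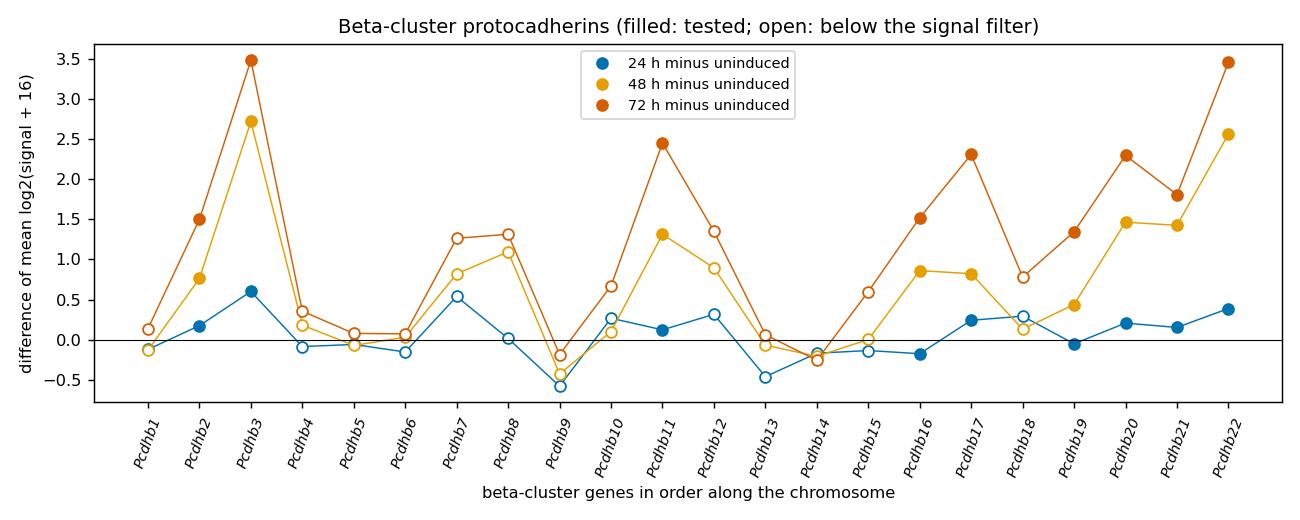
Difference of mean log2(signal + 16) from uninduced cells (y axis) for the 22 beta-cluster protocadherins in their order along the chromosome (x axis), at 24 h (blue), 48 h (yellow) and 72 h (red); filled points were tested, open points were below the signal filter, and lines join genes of one comparison. The 24 h line stays near 0, and Pcdhb3, Pcdhb11, Pcdhb17, Pcdhb20 and Pcdhb22 reach over 2 at 72 h while Pcdhb1, Pcdhb5 and Pcdhb6 remain near 0.

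The remaining members gave little signal. Of the 32 untested genes, 29 stayed under a signal of 50 on every array. The exceptions were Pcdh1, at 90.2 on induced 24 h replicate 1 and at most 23.2 elsewhere, Pcdhb12, at up to 53.5 at 72 h, and Cdh13, the membrane-anchored T-cadherin, at up to 50.4 at 72 h. None of the 5 cadherins outside the classical types, Cdh13, Cdh16, Cdh17, Cdh23 and Cdh26, was tested. The single gamma-cluster gene with its own probe set, Pcdhgc4, went from 3.48, 1.43 and 3.74 in uninduced cells to 24.5, 16.5 and 13.3 at 72 h, without overlap.

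Catenins, which tie classical cadherins to actin, were followed as partners. Of the 6 tested, 0 were called at 24 h (1 at an unadjusted p under 0.05, and 1 called without the array that stood apart), and 2 rose at 48 and 72 h, both neuronal forms. Both passed the filter through the 48 or 72 h arrays alone, so their count is no support. Of all genes tested 8.12%, 22.6% and 25.3% were higher at 24, 48 and 72 h. Ctnna2, alpha-N-catenin, gave 2.2, 1.68 and 3.78 in uninduced cells, 7.69, 20 and 15.4 at 24 h, 81.3, 76.6 and 50 at 48 h, and 285, 267 and 303 at 72 h. Its groups did not overlap at any step, and it was higher by 2.18 ± 0.22 at 48 h (adjusted p = 1.52e-05) and 4.02 ± 0.22 at 72 h (adjusted p = 1.38e-07). Ctnna2 rose by a further 1.84 from 48 to 72 h (adjusted p = 0.00232). Ctnnd2, delta-catenin of neurons, was higher by 1.22 ± 0.25 at 48 h (adjusted p = 0.00203) and 2.28 ± 0.25 at 72 h (adjusted p = 1.44e-05). The catenins found in most tissues did not pass at 72 h: Ctnnb1 (beta-catenin) was at 0.02 ± 0.14, Ctnna1 at -0.38 ± 0.21, Ctnnd1 (p120) at -0.11 ± 0.20 and Jup (plakoglobin) at -0.67 ± 0.43.

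**Figure D5:**
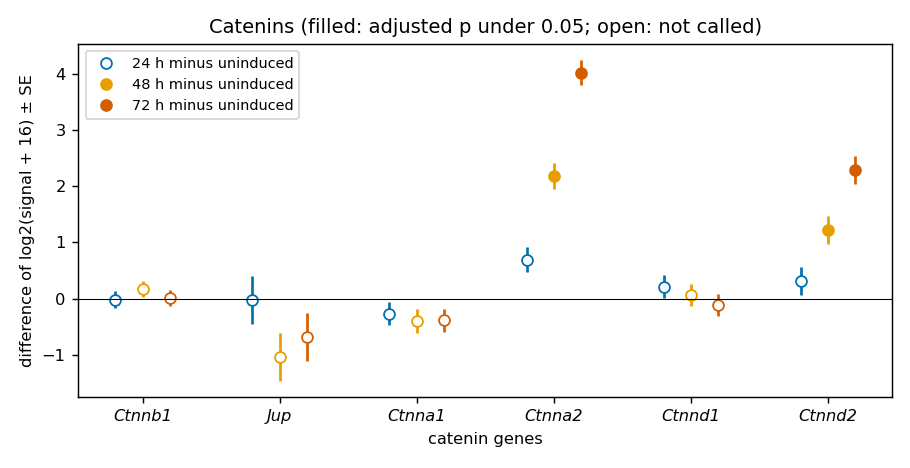
Difference of the 6 tested catenins from uninduced cells (y axis, log2(signal + 16) scale, ± SE) at 24 h (blue), 48 h (yellow) and 72 h (red); filled points have an adjusted p under 0.05. Ctnna2 and Ctnnd2 climb with time, and the points of Ctnnb1, Ctnna1, Ctnnd1 and Jup are all open.

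Among other genes of cadherin adhesion some rose and some fell, beside 22.6% higher and 14% lower of all genes tested at 48 h and 25.3% and 18.6% at 72 h. Among 13 tested further cadherin superfamily genes 6 rose and 2 fell by 48 h and 7 rose and 2 fell by 72 h. Ret, a receptor kinase with cadherin-like domains, was higher by 4.41 and 5.83 (adjusted p = 2.55e-06 and 2.18e-07), and the desmosomal cadherin Dsg2 was lower by -2.47 and -2.59 (adjusted p = 0.00505 and 0.00295). Among 15 tested junction partners 1 rose and 4 fell by 48 h and 2 rose and 4 fell by 72 h, with the epithelial adhesion gene Epcam at -2.96 and -3.82 (adjusted p = 1.21e-05 and 1.03e-06).

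Of 18 tested regulators of cadherin transcription and cleavage, 2 rose and 2 fell by 24 h, 7 rose and 4 fell by 48 h, and 5 rose and 6 fell by 72 h. The shares of all genes tested were 8.12% and 3.18% at 24 h, 22.6% and 14% at 48 h, and 25.3% and 18.6% at 72 h. Without the array that stood apart 6 rose and 5 fell by 24 h. The pluripotency factor Klf4, which activates Cdh1, was lower by -2.95 ± 0.28 at 24 h (adjusted p = 6.42e-05; -2.93 without the array that stood apart) and by -3.52 and -4.00 later. Zeb1, a repressor of Cdh1, was already higher at 24 h, at 168, 570 and 529 against 163, 157 and 108 in uninduced cells, with the array that stood apart lowest. That difference was 1.31 ± 0.38 (adjusted p = 0.0438), and 1.85 without that array (adjusted p = 5.37e-05), but the call held in 6 of 21 alternatives (highest adjusted p = 0.209) and was lost without any other single array. Zeb1 and Zeb2, also a Cdh1 repressor, were higher at 48 h by 2.78 ± 0.38 (adjusted p = 0.00013) and 3.59 ± 0.57 (adjusted p = 0.000413), and at 72 h by 2.87 and 3.18. Twist1 also was called higher at 24 h, at 153, 50.3 and 56.7 against 2.89, 26.4 and 30.1 in uninduced cells. Esrp1 also was called lower at 24 h. Among the Snai genes of the list, Snai2 was called higher at 48 h. Snai1 gave 21, 18.8 and 16.9 at 48 h against 32.2, 27.9 and 20.4 in uninduced cells. Snai3 gave 14.7, 33 and 20.6 against 36.9, 37.2 and 59.2. The part of these genes in the Cdh1 result was not tested. Of 15 tested regulators of the clustered protocadherins 1 rose and 1 fell by 24 h and 0 rose and 5 fell by 48 h and by 72 h, beside the same shares of all genes tested. Without the array that stood apart 4 rose and 3 fell by 24 h. Rest, a repressor of neuronal genes that also binds clustered protocadherin promoters, was lower by -2.10 ± 0.44 at 24 h (adjusted p = 0.00857), -2.34 ± 0.44 at 48 h (adjusted p = 0.00126) and -2.75 ± 0.44 at 72 h (adjusted p = 0.000295). Its 24 h signals were 103, 423 and 512 against 1234, 1273 and 1346 in uninduced cells, with the array that stood apart lowest. The 24 h difference was -1.43 without that array (adjusted p = 0.000222), and the call was lost in a fit of the 6 arrays alone (adjusted p = 0.0836). The DNA methyltransferase Dnmt3a was higher by 1.50 ± 0.26 at 24 h (adjusted p = 0.0031, and 1.34 without the array that stood apart) and fell by 2.20 ± 0.26 from 24 to 48 h (adjusted p = 0.000179). The part of these regulators in the beta-cluster results was not tested.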

How the data were processed

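The authors deposited intensity values, linear signals of each probe set that came from MAS5 according to the submitters' processing notes. For the scaling, no label or header gives a target; the 2% trimmed mean was 150 on each array. No detection calls were used. Of 45101 probe sets, 64 controls and those with no gene symbol or several in the platform annotation were left out, and the brightest remaining one stood for each gene.

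Signals were analysed as log2(signal + 16) with limma 3.58.1 in R 4.3.3 (lmFit and eBayes with an intensity trend), all 12 arrays in 1 model without a block. Genes had to exceed their array's median (percentile 50) on all 3 arrays of a group; 11806 did. Benjamini-Hochberg adjustment ran over all of them, and the code was tested on simulated data. Arrays limit precision by their number, 3 a group. No arrays held identical values. Deviations of same-numbered arrays correlated at over 0.1 in all 3 pairs of 4 comparisons (lowest 0.135, highest 0.577) and in 2 of 3 for 72 h against uninduced cells (lowest 0.0787). The labels' replicate numbers may therefore pair the arrays in those 4, but the p-values of the main model leave this pairing out. A fit with the replicate number as a block is given as an alternative. With it Cdh4 and Pcdh19 from 24 to 48 h and Pcdh17 from 48 to 72 h passed, which they did not in the main model.

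Every member may be named: Cdh1 and Cdh2 always, then those called, then those above the array median in a group. Of other lists, the 2 largest called rises and falls per comparison may be named, and all catenins tested. Further marker and regulator genes are named where they show how a list divides. Members and lists were chosen with earlier results of these data known. Alternatives changed the pseudocount, filter, scaling, probe set rule, model, array weights and block, and left out each array in turn. Motifs were searched in RefSeq promoter sequences (GRCm38.p6); promoters of Cdh1 and Cdh2 were not used here.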

Additional observations from a re-analysis of the deposited data

Results flagged for a closer look

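Probe sets annotated to several genes of the alpha protocadherin cluster at once stood outside the comparisons, since none names 1 gene. There were 6, of which 3 are each annotated to 14 alpha-cluster genes and 3 to 9. In 5 of them the lowest signal at 72 h was above the highest uninduced signal. For the 3 probe sets shared by 14 genes that lowest 72 h signal was 494, 211 and 49.8, against uninduced signals of at most 8.87, 8.78 and 12.4. The first of these gave 16.9, 26.8 and 21.3 at 24 h, 155, 253 and 103 at 48 h, and 603, 508 and 494 at 72 h. For 2 of the probe sets shared by 9 genes the lowest 72 h signal was 13 and 19.5, against uninduced signals of at most 3.46 and 17.4. The difference from uninduced cells at 72 h was 4.76, 3.70 and 1.91 for the probe sets shared by 14 genes, and 0.70 and 0.76 for those shared by 9, on the log2(signal + 16) scale, with no test.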

How the results depend on the processing

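Of the 55 calls of family members over the 5 comparisons, 47 held in each of the 21 alternatives that tested them: 2 of 4 at 24 h, 13 of 15 at 48 h, 19 of 21 at 72 h, 13 of 13 from 24 to 48 h and 0 of 2 from 48 to 72 h. The number of members higher at 24 h was 2 in a fit of the 6 arrays alone and 2 to 4 on leaving out 1 array. Members lower at 48 h numbered 3 with quantile normalization, 2 with the 6 arrays alone, 2 with array weights and 1 to 2 on leaving out 1 array. Members lower at 72 h numbered 1 with no filter, 1 with the filter at percentile 75, 3 with quantile normalization or array weights, and 1 to 3 on leaving out 1 array. That stricter filter tested fewer genes and left 5 members higher at 48 h, at 72 h and from 24 to 48 h, and 0 from 48 to 72 h. From 48 to 72 h the number higher was otherwise 0 with a pseudocount of 1, 7 with 64, 5 with the mean of all probe sets, 6 with the 6 arrays alone, 13 with array weights (whose estimation stopped before converging) and 0 to 6 on leaving out 1 array; 6 came without 24 h replicate 1, which enters only through the shared spread. Pairing by replicate number, as a block, gave 4, 14, 21, 13 and 3 members higher in the 5 comparisons. Under the block Cdh9 (adjusted p = 0.039) and Cdh22 (adjusted p = 0.0423) passed at 72 h, where 2 of 3 same-numbered pairs correlated at over 0.1. Cdh1 at 24 h was 0.017 with quantile normalization and -0.25 to 0.077 on leaving out 1 array; Cdh2 was 1.31 with the 6 arrays alone and 1.09 to 1.66. At 72 h Ctnna1 was 0.011 with quantile normalization, Ctnnd1 0.23 with the mean of all probe sets, and Ctnnb1 -0.087 with array weights and -0.036 to 0.085 on leaving out 1 array, none of them called. The cause of these changes was not tested. Quantile normalization moved the median of all tested genes by -0.15 at 48 h and -0.16 at 72 h. Signals near the lower end of an array carry no order, which limits the 32 untested members. The same limit holds for steps between dim groups of tested genes, such as Pcdhb3 and Ctnna2 at 24 h against uninduced cells.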
